A study of Mus musculus with 29 samples.

Results

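The hypothalamus of midlife mice, at 12 months of age, was compared with that of mice at weaning, at 3 weeks, by RNA sequencing. All libraries came from wild-type (WT) C57BL/6 mice labelled male, singly housed on a cycle of 12 h light and 12 h dark with free access to food and water, and none carries a transgene or a treatment per the labels. Dissection took place around 6 h into the light phase, and the tissue was stored in RNAlater and then frozen. The comparison takes the 3 libraries labelled 3 weeks (replicates 1, 2 and 3) and the 3 labelled 12 months (replicates 26, 27 and 28), which makes 6 of the 29 libraries of the series. The other 23 cover postnatal day 5 (P5), 4 and 5 weeks, and 2, 6, 18 and 24 months, and those at 4 weeks (4 libraries), 5 weeks (4) and 6 months (3) serve here to follow the direction of each change. The labels number the libraries and do not say that each is a separate mouse, so p-values measure the spread between libraries. That spread was estimated over 28 libraries of all 9 ages, not from the 6 compared libraries alone.

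The hypothalamus controls feeding, body temperature, the stress axis, growth and reproduction through neurons that release peptides. Around weaning much of the brain's white matter is still being made: precursor cells divide, pass through a short newly formed stage marked by Gpr17 and Enpp6, and become oligodendrocytes that wrap axons in myelin, a membrane rich in cholesterol. In the same weeks neurons lower the proteins of growing axons. Later in life, glia of many brain regions are known to raise complement, antigen presentation and interferon-response genes.

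The tissue label was borne out in every library of the comparison by the peptides that define the hypothalamus. Avp (vasopressin) stood at 264, 405 and 183 CPM at 3 weeks and at 399, 313 and 1040 CPM at 12 months. CPM are counts per 1000000 gene counts after TMM scaling of the library sizes (the trimmed mean of M-values, which balances library composition). Hcrt (orexin) stood at 58.1 CPM or more and Pmch (melanin-concentrating hormone) at 35.5 CPM or more in each of the 6 libraries. The 3-week libraries held 28775032 to 35029863 gene counts each, and the 12-month ones 24661631 to 27936518, so that 3 counts made about 0.1 CPM.

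Some libraries carried RNA of neighbouring tissue, and results of 12 months against 3 weeks that rest on them are given with and without them. The 14 choroid plexus markers, genes of the tissue that makes cerebrospinal fluid, summed to 83.4 to 162 CPM at 3 weeks and to 99.8 to 5180 CPM at 12 months. Ttr (transthyretin), its most abundant RNA, was at 13.4, 11.8 and 99.5 CPM at 3 weeks and at 10.9, 1550 and 4550 CPM in 12-month replicates 26, 27 and 28. The 3-week replicate 1 held 44.9 CPM of the adenosine receptor Adora2a, a gene abundant in striatum, against 3.72 and 2.92 CPM in its 2 companions. Bpifa2, a salivary gland protein, was at 34, 47.0 and 42.6 CPM at 3 weeks and at 0 in every 12-month library. At 4 weeks it was present in 2 of 4 libraries. Libraries used to follow directions held such RNA too. Choroid plexus markers summed to 93.4 to 1120 CPM at 6 months and to 62.1 to 1660 CPM at 5 weeks. Striatum and basal forebrain markers summed to 573 to 1310 and 654 to 733 CPM, and midbrain and hindbrain markers to 245 to 625 and 228 to 376 CPM. List counts at 6 months against 4 and 5 weeks are given only with all of these libraries in. Titles of the 3-, 4- and 5-week libraries begin with other letters than those of the 6- and 12-month ones, so age and whatever this prefix stands for cannot be told apart in 12 months against 3 weeks, nor in 6 months against 4 and 5 weeks. The within-prefix comparisons, 5 against 3 weeks and 12 against 6 months, are given beside it. Reads assigned to no gene made up 6.29 to 6.59% of the younger libraries and 8.22 to 11.7% of the older ones, and their part in the results was not tested.

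**Figure D1:**
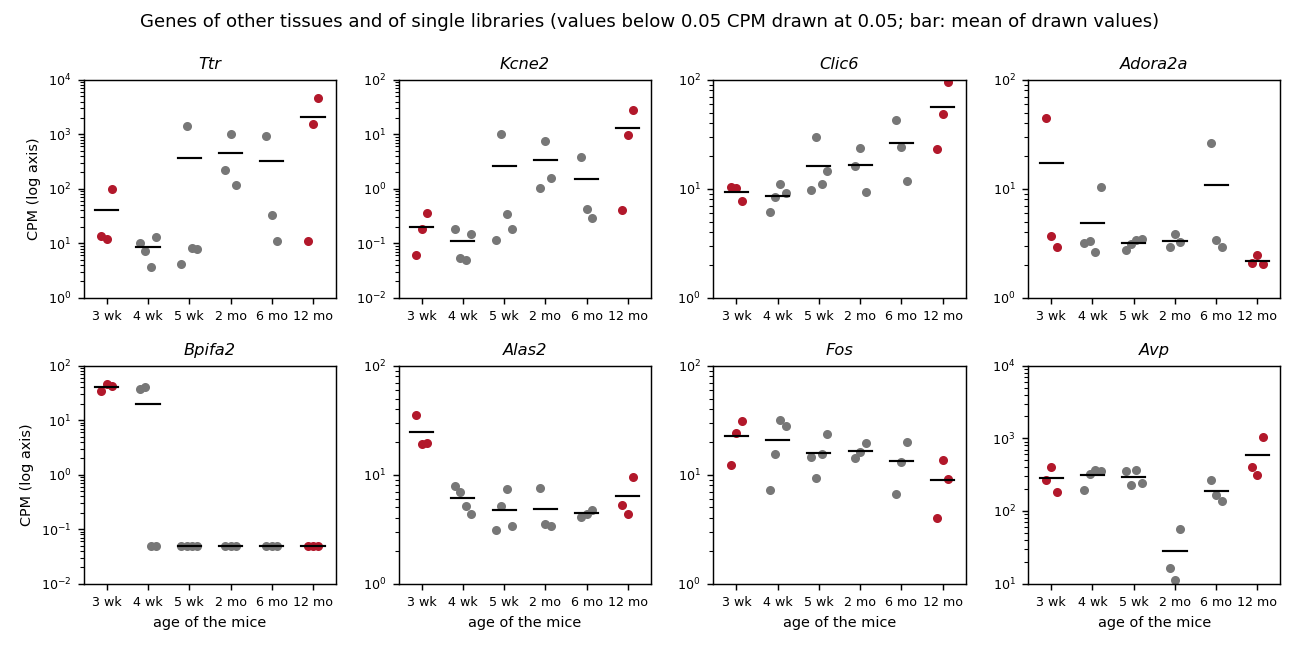
CPM on a log axis against age for 8 genes, 1 point per library in replicate order from left to right, the 3-week and 12-month libraries in red, with a bar at the mean; values below 0.05 CPM are drawn at 0.05. Ttr and Kcne2 are high in 12-month replicates 27 and 28 and low in replicate 26 (10.9 and 0.407 CPM), and Adora2a is highest among the red points in 3-week replicate 1.

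Of 16916 genes tested with the quasi-likelihood test of edgeR, 5569 (32.9%) differed between 12 months and 3 weeks at an adjusted p below 0.05 (Benjamini-Hochberg). They split almost evenly: 2685 (15.9%) were higher at 12 months and 2884 (17.0%) were lower. Large rises outnumbered large falls, with 731 called genes at least 2-fold higher and 323 at least 2-fold lower. In 2471 of the higher and 2769 of the lower genes the 3 libraries of each age did not overlap in CPM; over all 16916 tested genes, called or not, 3692 were higher and 3737 lower without overlap. The called shares of all genes, 32.9%, 15.9% and 17.0%, are the background for the counts of list members that follow. With library sizes left unscaled, 67.6% of 6063 called genes were higher in place of 48.2%, and the median log2 fold change over all genes moved from 0.023 to 0.126. Leaving out 12-month replicates 27 and 28, so that replicate 26 alone stands for the age and is assumed to vary like the other groups, left 3364 called genes.

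Far fewer genes were called against 3 weeks at the next ages sampled. At 4 weeks 85 genes (0.502%) differed from 3 weeks, and at 5 weeks 364 (2.15%). Between 6 and 12 months edgeR called 0 genes (0%), with 1548 at an unadjusted p below 0.05, and DESeq2 called 24. The 6-month libraries against the mean of 4 and 5 weeks, a comparison that shares no library with 12 months against 3 weeks but has the same split of title prefixes, gave 3884 called genes (23%), of which 1735 were higher (10.3%) and 2149 lower (12.7%). Without 6-month replicate 33 this fell to 2286 genes, and without replicate 32 to 2446. Of the 5569 genes called at 12 months against 3 weeks, 5328 (95.7%) had the same sign in this second comparison, against 71.4% of the genes not called. In both comparisons 1120 genes were called higher and 1638 lower, and 0 were called in opposite directions. A difference that goes with the prefix would have the same sign in both, so age and prefix cannot be told apart in this agreement either. The 2758 shared calls make 49.5% of the first list and 71.0% of the second.

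**Figure D2:**
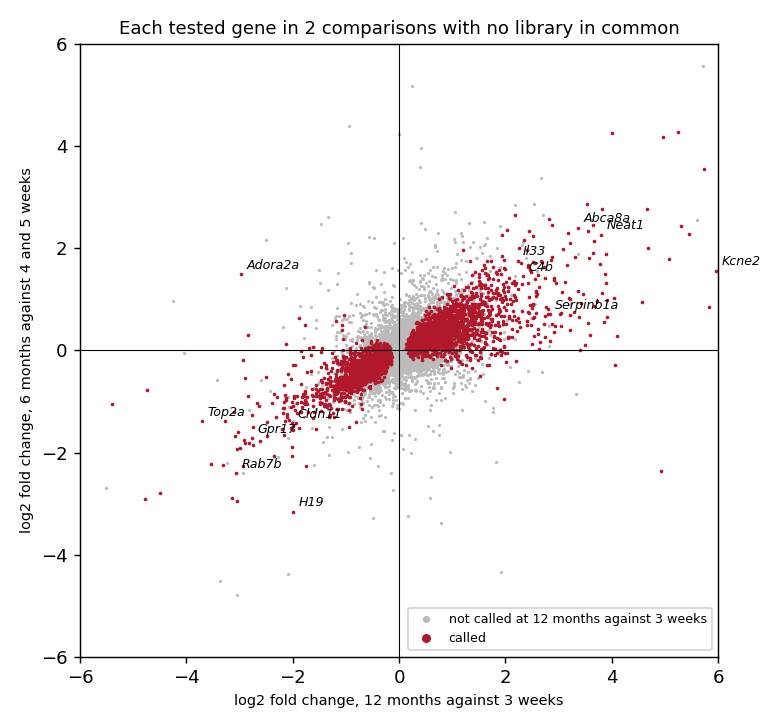
Log2 fold change of each tested gene at 12 months against 3 weeks (x axis) and at 6 months against 4 and 5 weeks (y axis), genes called in the first comparison in red; 19 genes lie outside the plotted range of -6 to 6. Of the 5569 red genes, 5328 have the same sign on both axes; Adora2a, at -2.97 on the x axis and 1.49 on the y axis, is one of the exceptions.

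Genes of young oligodendrocytes fell. Of the 22 markers of precursors and newly formed oligodendrocytes, 16 (72.7%) fell and 0 rose, with a median log2 fold change of -0.78 against 0.023 over all tested genes. In bulk tissue, fewer cells of a type and less RNA per cell cannot be told apart. Gpr17, a receptor of the newly formed stage (chromosome 18, 31942997 to 31949636, minus strand; this and later gene positions are from GENCODE M21 on GRCm38), was at 242, 220 and 228 CPM at 3 weeks. At 12 months it was at 33.4, 32.7 and 35.5 CPM, far below every 3-week library. This is a log2 fold change of -2.76 ± 0.14 (SE; edgeR adjusted p = 1.32e-12, n = 3 and 3), or 6.79-fold. The decline was under way at 4 weeks (mean 147 CPM) and 5 weeks (107 CPM, adjusted p = 4.51e-06 against 3 weeks) and the 6-month mean was 38.1 CPM.

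Other stage markers followed with smaller folds. Enpp6, a choline phosphodiesterase of the first weeks of myelination, went from 35.7, 31.1 and 34.7 to 7.13, 8.29 and 9.89 CPM (log2 fold change -2.01 ± 0.20). Bmp4, a secreted growth factor of the newly formed stage, fell from 9.29, 9.35 and 10.1 to 1.97, 2.09 and 3.77 CPM. The lineage's transcription factors Olig1, Olig2 and Sox10 had log2 fold changes of -1.10, -1.10 and -0.86. Fyn, a kinase that starts wrapping, was at 261, 260 and 261 CPM at 3 weeks and at 119, 125 and 114 CPM at 12 months. Its 3 values at 3 weeks are nearly identical, and the groups are well apart. Pdgfra, the growth factor receptor of the precursor itself, fell less, from 108, 105 and 98.5 to 70.5, 73.3 and 77.0 CPM (-0.50 ± 0.09), and most of that fall had occurred by 5 weeks (78.9 CPM). Cspg4, the other classic precursor marker, had a log2 fold change of -0.28 ± 0.12 (adjusted p = 0.073). Tcf7l2 and Bcas1 had log2 fold changes of 0.00 ± 0.36 and 0.11 ± 0.18, with overlapping groups. At 6 months against 4 and 5 weeks, 11 of the 22 fell and 1 rose.

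The largest falls among all genes came from several tissues and roles. By the rule of the 10 lowest fold changes with separate groups and at least 5 CPM, they were Bpifa2, Smr3a, Top2a, Rab7b, Adora2a, Gpr17, Rnf122, Cldn14, Col3a1 and Shisa8. Rnf122, a ubiquitin ligase (chromosome 8, 31111820 to 31131482, plus strand), fell from 34.7, 31.8 and 36.3 to 5.06, 5.50 and 6.12 CPM, and Rab7b, a small GTPase of late endosomes, from 10.5, 9.90 and 11.4 to 0.747, 1.12 and 1.96 CPM. Both declined stepwise through 4 weeks (23.5 and 8.51 CPM), 5 weeks (17.4 and 5.96), 2 months (10.6 and 3.53) and 6 months (5.93 and 1.33). Cldn14, a tight junction protein, and Shisa8, a receptor-associated membrane protein, had log2 fold changes of -2.48 and -2.30. Smr3a and Bpifa2 are salivary genes, with 701 and 3864 counts at 3 weeks and 0 at 12 months, at least 200-fold and at least 1100-fold lower when the 12-month group is set at 3 counts in all. The call of Smr3a was lost on leaving out any 1 of the 6 libraries (adjusted p = 0.0549 to 0.0788). Adora2a rests on 3-week replicate 1: without it the log2 fold change was -0.59 with an adjusted p of 0.627, and its call was also lost without 12-month replicate 26, 27 or 28 (adjusted p = 0.0538 to 0.0728).

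Myelin genes themselves parted in opposite directions. Of the 28 markers of mature oligodendrocytes, 11 fell and 10 rose, which is 75% called with a median of -0.05. The members that fell include proteins of the sheath and the transcription factor Myrf. Mbp (myelin basic protein) went from 9170, 9130 and 10900 to 4010, 4110 and 5590 CPM (-1.09 ± 0.19). Mog, a surface protein of the outer sheath, was at 238, 207 and 278 CPM at 3 weeks and at 77.1, 84.2 and 104 CPM at 12 months (-1.45 ± 0.13, adjusted p = 2.43e-08), with no overlap. Cldn11, which seals the layers of the sheath (chromosome 3, 31149920 to 31164324, plus strand), fell most, from 703, 701 and 840 to 159, 173 and 221 CPM (-2.02 ± 0.16). Ugt8a, Cnp, Mal, Mag, Mobp and Myrf were also lower, with log2 fold changes of -1.75 to -0.39. Myrf was not called without 3-week replicate 3 (adjusted p = 0.107) or without 12-month replicate 26 or 27. The means at 4 weeks were 259 CPM for Mog and 8960 CPM for Mbp, and that of Mbp was still 8940 CPM at 2 months.

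The members that rose include a cytokine, a protease inhibitor and several enzymes. Il33, a nuclear cytokine (chromosome 19, 29925114 to 29960718, plus strand), went from 21.1, 17.0 and 19.3 to 75.7, 90.4 and 103 CPM (2.23 ± 0.18, adjusted p = 4.41e-09), with means of 26.7, 37.2, 89.0 and 107 CPM at 4 weeks, 5 weeks, 2 months and 6 months. Serpinb1a, a protease inhibitor, rose from 2.56, 2.71 and 3.42 to 15.9, 18.7 and 27.5 CPM (2.83 ± 0.29), and had a mean of 16.7 CPM by 5 weeks (adjusted p = 9.1e-06 against 3 weeks). Hapln2, a link protein at the nodes of Ranvier, rose by 1.34 ± 0.14, Anln by 1.09 ± 0.17 and the carbonic anhydrase Car2 by 0.83 ± 0.15. Apod, Plin3, Aspa, Trf and Enpp2 were the other risen members. Enpp2 is also abundant in choroid plexus, and at 12 months it read 219 CPM in replicate 26, 888 in 27 and 2160 in 28. Its call was lost without any 1 of the 3-week libraries or without replicate 28 (0.83, adjusted p = 0.322), and that of Trf without 3-week replicate 1 or 2 or replicate 28 (0.32, adjusted p = 0.196). Without replicates 27 and 28, 5 members rose and 10 fell. Abca8a, a lipid transporter that is in no list (chromosome 11, 110025634 to 110095978, minus strand), had one of the 10 highest fold changes: 2.92, 2.67 and 3.09 CPM against 26.8, 26.8 and 36.5 (3.37 ± 0.24).

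Genes of cholesterol synthesis fell. Of its 24 genes 15 (62.5%) fell and 0 rose, with a median of -0.27; under the alternatives that used these libraries without 24-month replicate 5, 11 to 15 fell, and 1 rose with unscaled library sizes. At 6 months against 4 and 5 weeks 18 fell, among them all 15. Hmgcs1, which makes the first committed precursor, was at 492, 436 and 543 CPM at 3 weeks and at 268, 311 and 274 CPM at 12 months (-0.79 ± 0.12). Cyp51, the lanosterol demethylase, went from 161, 149 and 173 to 96.4, 106 and 89.4 CPM (-0.73 ± 0.09). In both genes the groups lie apart. Srebf2, the pathway's transcription factor, fell by 0.27 ± 0.07.

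**Figure D3:**
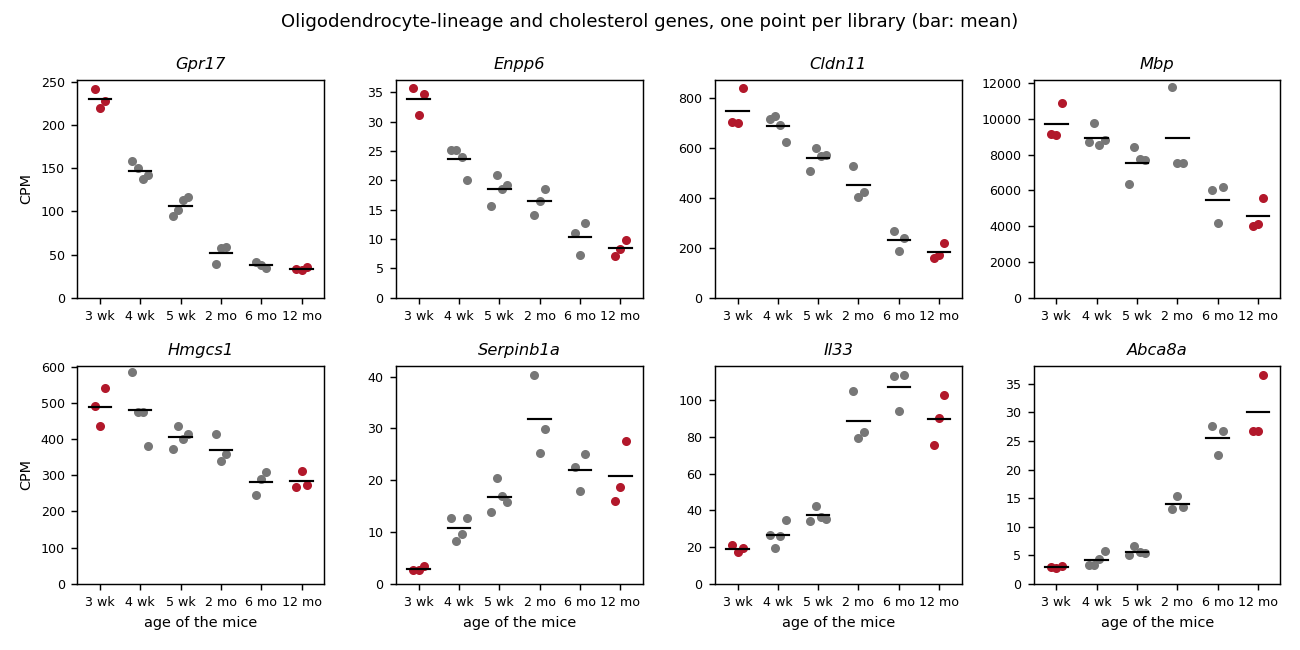
CPM against age for 8 genes, 1 point per library, the 3-week and 12-month libraries in red, with a bar at the mean. Gpr17 and Enpp6 drop from the first weeks on, Mbp, Cldn11 and Hmgcs1 are lower by 6 months, and Serpinb1a, Il33 and Abca8a are higher (Il33 19.1 CPM on average at 3 weeks and 89.7 at 12 months).

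Promoters of the fallen cholesterol genes are shown because these genes moved together and because one short motif recurs in them. The 250 bases before a RefSeq start (GRCm38.p6) were in the promoter table for 11 of the 15 fallen genes. Of these, 11 of 11 hold the letters CCAAT on either strand, against 37.5% of all 27025 symbols in the table. Here and below, a symbol with more than 1 start counts as holding a motif if any start does. The start with the most matches is the one shown. The tested genes of the list that are in the table, 16 in all, hold it too, so the letters do not separate called from other members. The sterol element TCACNCCAC was found in 1 of the 11 (Hmgcs1), against 1.22% of all symbols. A match is a description of the letters in this window. Capitals mark the matches in 120 bases of each strand as transcribed, from Cyp51 (chr5:4104698-4104817, minus strand), Dhcr7 (chr7:143830094-143830213, plus strand) and Hmgcs1 (chr13:119690204-119690323, plus strand; here the sterol element is in capitals).
Cyp51: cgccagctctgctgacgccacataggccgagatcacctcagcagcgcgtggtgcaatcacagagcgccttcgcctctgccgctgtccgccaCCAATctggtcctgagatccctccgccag
Dhcr7: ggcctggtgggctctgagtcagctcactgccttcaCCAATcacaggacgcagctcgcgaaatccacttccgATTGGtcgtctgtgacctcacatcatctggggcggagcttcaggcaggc
Hmgcs1: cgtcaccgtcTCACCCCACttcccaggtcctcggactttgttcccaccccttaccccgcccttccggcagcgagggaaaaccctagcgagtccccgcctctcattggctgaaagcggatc

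Genes of dividing cells fell. Of 40 cell cycle and replication genes, 18 fell and 1, the replication licensing factor Mcm4, rose, and 47.5% were called in all. The call of Mcm4 was lost without 3-week replicate 1 or 3 or 12-month replicate 26 or 28 (adjusted p = 0.0959 to 0.214). Top2a, the topoisomerase of dividing cells (chromosome 11, 98992943 to 99024189, minus strand), went from 6.37, 5.06 and 3.69 to 0.373, 0.232 and 0.549 CPM (-3.70 ± 0.33, adjusted p = 1.99e-08). Mki67, the proliferation antigen, went from 5.44, 2.42 and 2.44 to 0.509, 0.426 and 0.667 CPM (-2.68 ± 0.35). The lowest 3-week library was above the highest 12-month one in both. Mean Top2a was 2.26 CPM at 4 weeks, 1.76 at 5 weeks, 0.717 at 2 months and 0.754 at 6 months. Ube2c, which marks cyclins for destruction, and the cyclin-dependent kinase Cdk1 had log2 fold changes of -3.02 and -2.39 at levels of 1.35 CPM or less. The count of fallen genes was 12 without 12-month replicates 27 and 28 and 9 when 3-week replicate 1 was left out as well.

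The same promoter letters recur in these genes. Of the 18 fallen cell cycle genes 13 are in the promoter table; 13 of 13 hold CCAAT (37.5% of all symbols) and 7 of 13 hold TTTGAA, a motif of cell cycle promoters (18.3% of all symbols), each searched on both strands. Among the tested members in the table, called or not, 25 of 31 hold CCAAT. In Top2a there are 6 CCAAT matches in the 250 bases, of which 3 fall in the stretch shown (chr11:99024307-99024426, minus strand), and in Mki67 both matches to TTTGAA are shown in capitals (chr7:135716386-135716505, minus strand).
Top2a: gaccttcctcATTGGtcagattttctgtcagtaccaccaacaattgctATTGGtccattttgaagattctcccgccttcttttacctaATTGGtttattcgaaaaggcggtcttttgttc
Mki67: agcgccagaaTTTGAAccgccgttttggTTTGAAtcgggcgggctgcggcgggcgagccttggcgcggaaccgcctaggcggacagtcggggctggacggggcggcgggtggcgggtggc

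Genes of growing axons fell as well. Of 30 genes of immature neurons and growth cones 18 (60.0%) fell and 0 rose, with a median of -0.38, and 14 fell at 6 months against 4 and 5 weeks. Without 12-month replicates 27 and 28 the count was 10. Marcksl1, which binds actin at the membrane of growing processes, went from 252, 283 and 255 to 96.0, 92.5 and 97.9 CPM (-1.46 ± 0.11, adjusted p = 4.65e-10). Sox4, a transcription factor of young neurons, went from 60.0, 72.9 and 62.7 to 22.6, 23.8 and 23.5 CPM, a level reached by 2 months (23.6 CPM). Both sets of libraries are tight and far apart. Gap43, the classic growth cone protein, fell by 0.32 ± 0.10, a call lost without 3-week replicate 2 (adjusted p = 0.093) or 12-month replicate 28 (0.0875), and Sox11 by 0.48 ± 0.13, a call that was lost without 12-month replicates 27 and 28 (adjusted p = 0.163). Dcx, the marker of migrating neurons, had 23.7, 21.1 and 19.8 CPM at 3 weeks and 31.6, 19.9 and 19.2 CPM at 12 months, with overlapping groups. Of 46 genes of axon guidance and synapse formation 11 fell and 5 rose (3 and 4 at 6 months against 4 and 5 weeks). At 12 months 34.8% were called, near the 32.9% of all genes. Rises numbered 3 without 3-week replicate 1 and 2 without 3-week replicate 2, 3-week replicate 3 or 12-month replicate 27, and falls numbered 7 without 3-week replicate 3 or 12-month replicate 26.

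Matrix and endothelial genes fell. Of 38 genes of the extracellular matrix 11 fell and 5 rose, and 2 to 3 rose when a 3-week library was left out. Col3a1, a fibril collagen, went from 20.5, 23.3 and 12.6 to 2.68, 2.87 and 5.45 CPM (-2.36 ± 0.47). A pair of proteins of the vessels' basement membrane, Nid1 and Col4a1, went from 38.7, 46.2 and 36.9 to 10.4, 10.1 and 13.6 CPM (-1.84 ± 0.18) and from 75.2, 81.9 and 73.9 to 41.7, 34.2 and 32.8 CPM (-1.09 ± 0.17). Of 25 endothelial genes 12 fell and 2 rose (Esm1 and Plvap), with a median of -0.36. Without 3-week replicate 3 or 12-month replicate 28, 1 rose, since Esm1 was then not called (adjusted p = 0.0727 and 0.0911). The apelin receptor Aplnr, a marker of growing vessels, was at 3.37, 4.04 and 3.15 CPM at 3 weeks and at 0.0679, 0.194 and 0.667 CPM at 12 months. Mfsd2a, the lipid transporter of the blood-brain barrier, fell by 1.19 ± 0.14 and the junction protein Cldn5 by 0.79 ± 0.21. Between 10 and 13 endothelial genes fell under the alternatives that kept 24-month replicate 5 out. Of 15 pericyte and smooth muscle genes 2 fell and 0 rose, and the 13.3% called lie below the 32.9% of all genes. At 6 months against 4 and 5 weeks 0 of these 15 were called. Of 18 perineuronal net genes 8 fell and 0 rose, among them Ncan (neurocan, -1.01 ± 0.12); with unscaled library sizes 3 fell, and without 12-month replicates 27 and 28, 2. Leaving out 3-week replicate 2 gave 4 falls, and 3-week replicate 1 or 3 or 12-month replicate 26 or 27 gave 5. Acan (aggrecan), the defining core protein of the nets, had a log2 fold change of 0.13 ± 0.22. At 6 months against 4 and 5 weeks 3 of the 18 net genes fell and 1 rose, with a median of 0.

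Red blood cell genes fell. Of 10 tested genes 6 fell and 0 rose. Alas2, the first enzyme of heme synthesis in red cells, was at 35.1, 19.2 and 19.7 CPM at 3 weeks and at 5.29, 4.38 and 9.49 CPM at 12 months (-1.95 ± 0.35). It was down by 4 weeks (6.10 CPM) and 5 weeks (4.76 CPM, adjusted p = 0.000129), and its log2 fold change at 6 months against 4 and 5 weeks was -0.29 ± 0.30. Slc4a1, the anion exchanger of red cells, fell by 2.94 ± 0.44. Hemoglobin genes are near-identical copies, so their counts are uncertain.

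Of the hypothalamic neuropeptides only a few were called. Of 34 peptide genes 2 (5.88%) were called, both lower, against 32.9% of all genes. At 6 months against 4 and 5 weeks 5 fell and 0 rose, with a median of -0.39 against -0.05 at 12 months. The 2 comparisons had 0 called peptides in common. Npy, a peptide that drives feeding, went from 26.3, 33.8 and 24.5 to 14.1, 10.5 and 17.5 CPM (-1.0 ± 0.31, adjusted p = 0.0159). Sst (somatostatin), which inhibits growth hormone release, went from 152, 175 and 167 to 101, 96.3 and 111 CPM (-0.68 ± 0.21). Both calls were lost without 12-month replicates 27 and 28 (adjusted p = 0.132 and 0.122), at log2 fold changes of -0.99 and -0.71, and that of Npy also without 3-week replicate 2 (0.0684) or 12-month replicate 27 (0.0693). Avp, Oxt (oxytocin), Pomc, Agrp, Hcrt and Pmch were not called, at 1.04 ± 0.53, 0.63 ± 0.44, 0.56 ± 0.39, -0.38 ± 0.33, -0.83 ± 0.53 and 0.30 ± 0.34. The standard errors of these peptides are wide, so that changes near 2-fold could not be detected for several of them. Of 34 hypothalamic transcription factors 4 fell and 0 rose, and the falls numbered 0 without 3-week replicate 2, 1 without 12-month replicate 26, 2 without 3-week replicate 3 or 12-month replicate 28, and 7 without 3-week replicate 1.

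Among synapse genes the called shares were below the 32.9% of all genes. Of 34 receptor genes for glutamate and GABA 4 fell and 1 rose, of 28 ion channels 4 fell and 0 rose, and of 35 genes of synaptic vesicles and release 8 fell and 2 rose. Channel falls numbered 1 without 12-month replicate 28 and 2 without 3-week replicate 3, and vesicle gene falls 5 without replicate 28. The balance was another at 6 months against 4 and 5 weeks. There 6 channels rose and 2 fell, 10 vesicle genes rose and 3 fell, and 4 receptor genes rose and 4 fell. Syp (synaptophysin) went from 1820, 1820 and 1920 to 1220, 1340 and 1150 CPM (-0.58 ± 0.07, adjusted p = 1.16e-06). Grin2d, the juvenile subunit of the NMDA receptor, fell by 0.89 ± 0.17. Grin2a and Grin2b, the subunits that exchange in the forebrain after birth, were not called (0.11 ± 0.30 and -0.22 ± 0.32), and their groups overlapped. With unscaled library sizes the medians of the receptor and channel lists turned from -0.05 and -0.08 to 0.05 and 0.02, and 4 channels rose and 1 fell.

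Genes of puberty and of imprinted growth held single large changes. Mkrn3 (chromosome 7, 62417593 to 62420139, minus strand), a ligase known as a brake on puberty, went from 5.53, 2.82 and 3.24 to 0.679, 0.852 and 1.33 CPM (-2.03 ± 0.25, adjusted p = 1.97e-06). Its means were 3.52 CPM at 4 weeks, 2.61 at 5 weeks, 2.26 at 2 months and 1.42 at 6 months. The nearby imprinted gene Peg12 (chromosome 7, 62461871 to 62464510, minus strand) went from 1.47, 1.95 and 1.67 to 0.0679, 0.271 and 0.353 CPM (-2.89 ± 0.41), and H19, an imprinted RNA on another part of chromosome 7, fell by 1.99 ± 0.42. Gnrh1 and Kiss1, the peptides that start puberty, were low (3.49 CPM or less) and not called. The hormone receptors Insr (insulin), Ghr (growth hormone) and Lepr (leptin) rose, by 0.37 ± 0.10, 0.50 ± 0.14 and 1.09 ± 0.39. Lepr read 4.95, 5.46 and 9.77 CPM in 12-month replicates 26, 27 and 28, in the order of their choroid plexus level, and its call was lost without any 1 of the 3-week libraries (adjusted p = 0.0632 to 0.116) or without replicate 28 (0.195). Ghr was not called without replicate 28 (0.0838).

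By the rule for named genes, 1 of the 10 highest fold changes was that of a long noncoding RNA. The rule passes over Gm and Rik symbols, so noncoding RNAs with such names could not be among them. Neat1, the scaffold of paraspeckles (chromosome 19, 5824708 to 5845478, minus strand), was at 16.4, 17.9 and 16 CPM at 3 weeks and at 275, 173 and 253 CPM at 12 months (3.80 ± 0.29, adjusted p = 3.9e-09, or 13.9-fold). It climbed through 32.1 CPM at 4 weeks, 45.2 at 5 weeks, 143 at 2 months and 184 at 6 months. The imprinted RNA Meg3 (chromosome 12, 109541001 to 109571726, plus strand) was at 1050, 1230 and 1240 CPM at 3 weeks and at 5910, 2140 and 2230 CPM at 12 months. Its highest library, replicate 26, is also the one with the highest share of reads in no gene, 11.7%, and without it the log2 fold change of Meg3 was 0.89 (adjusted p = 0.0926). The 10 highest fold changes by the rule for named genes were Fbxw15, Kcne2, Neat1, Cldn2, Abca8a, Xdh, Abca4, Serpinb1a, Clic6 and C4b. Fbxw15, an F-box protein (chromosome 9, 109552602 to 109568262, minus strand), had 2 counts in all at 3 weeks and 517 at 12 months, a ratio of 303 with a counting interval of 83.3 to 2510. It was present at 0.925 CPM by 5 weeks and 3.63 CPM by 2 months. Xdh, the xanthine dehydrogenase, rose from 0.722, 0.867 and 0.714 to 6.38, 6.27 and 8.16 CPM. Kcne2, Cldn2, Abca4 and Clic6 are choroid plexus genes, and none of the 4 was called without 12-month replicates 27 and 28 (Kcne2 1.01, adjusted p = 0.834). Without replicate 28 alone, Kcne2, Cldn2 and Abca4 had log2 fold changes of 4.61, 2.37 and 1.93 and adjusted p of 0.0676, 0.144 and 0.0757. The call of Kcne2 was also lost without 3-week replicate 1 or 2, and that of Cldn2 without any 1 of the 3-week libraries.

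Clock genes and activity genes are read at 1 time of day here. Of 22 clock genes 6 rose and 1 fell (31.8% called, near the 32.9% of all genes), and rises numbered 2 without 3-week replicate 2, 3 without 12-month replicate 26 or 27, and 4 without 3-week replicate 1. Nr1d2 and Ciart rose by 0.34 ± 0.08 and 0.51 ± 0.16, and Ciart was not called without 3-week replicate 1, 3-week replicate 2 or 12-month replicate 26 (adjusted p = 0.0569 to 0.0767). The core genes Arntl, Per2 and Nr1d1 were not called (0.01 ± 0.12, 0.46 ± 0.20 and 0.26 ± 0.10), though Nr1d1 was called with unscaled library sizes (0.37, adjusted p = 0.00826). Of 18 immediate early genes, which neurons switch on within minutes of activity, 8 fell and 0 rose. At 6 months against 4 and 5 weeks 3 fell and 1 rose. Fos was at 12.4, 23.9 and 31.0 CPM at 3 weeks and at 4.00, 13.5 and 9.18 CPM at 12 months, with overlap, and its call was lost without 3-week replicate 2 or 3 or 12-month replicate 26 or 28 (adjusted p = 0.0955 to 0.186). Jun went from 73.4, 82.5 and 90.9 to 48.5, 51.0 and 54.9 CPM (-0.68 ± 0.11). The count was 4 without 3-week replicate 2, 4 without 3-week replicate 3 and 5 without 12-month replicate 26.

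Several genes of complement, antigen presentation and the interferon response rose. C4b, the fourth complement component (chromosome 17, 34728380 to 34743882, minus strand), went from 15.5, 15.3 and 11.5 to 65.4, 43.8 and 105 CPM (2.34 ± 0.32, adjusted p = 1.57e-05, or 5.06-fold). Its counts may be shared with the near-identical C4a. Its means were 13.1 CPM at 4 weeks, 15 at 5 weeks, 26.7 at 2 months and 38.4 at 6 months. C3, the central component, was at 3.10, 3.86 and 2.38 CPM at 3 weeks and at 9.40, 6.27 and 13.7 CPM at 12 months (1.65 ± 0.33). In both genes every 12-month library is above every 3-week library, and replicate 28 is the highest. C4b was called also without replicates 27 and 28. Of 22 complement genes 6 rose and 1 fell (Masp1), so that 31.8% were called, near the 32.9% of all genes, and without 3-week replicate 1 or 3, 3 rose. Without 12-month replicate 28, 4 rose, and with unscaled library sizes 12 did.

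Antigen presentation genes rose. Of 24 genes of MHC class I and II and their peptide loading 14 (58.3%) rose and 0 fell, with a median of 0.77, and 8 of these 14 rose also at 6 months against 4 and 5 weeks. H2-K1, a classical class I heavy chain, went from 35.1, 39.0 and 34.8 to 52.2, 46.3 and 77.1 CPM (0.69 ± 0.16, adjusted p = 0.00191). Tap1 and Tap2, which carry peptides to class I molecules, rose from 4.36, 4.15 and 3.24 to 6.89, 6.58 and 9.53 CPM and from 8.93, 11.3 and 9.07 to 17.4, 15.3 and 22.4 CPM (0.97 ± 0.20 and 0.91 ± 0.14). B2m (chromosome 2, 122147686 to 122153083, plus strand), the light chain, was at 80.1, 72.2 and 68.1 CPM at 3 weeks and at 82.3, 82.6 and 127 CPM at 12 months (0.41 ± 0.13), a call lost without replicate 28 (0.17, adjusted p = 0.286) and without 3-week replicate 2 (0.0657) or 3 (0.0869). Nlrc5, the activator of class I genes, rose by 1.29 ± 0.40 at 1.73 CPM or less, and was not called without 3-week replicate 1 or 3 or 12-month replicate 26 (adjusted p = 0.0584 to 0.0663). The H2 genes are similar copies, so single members are uncertain. In H2-K1, Tap1, Tap2 and B2m the highest 12-month library was replicate 28, which also held the most choroid plexus RNA. Replicate 27 also held choroid plexus RNA, as given above, and the part of that RNA in these rises was not tested. The count of risen members was 9 without replicate 28, 9 without 3-week replicate 3 and 9 with the choroid plexus level as a covariate. Cd74, the class II invariant chain, was not called (0.76 ± 0.39).

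Of 36 interferon-response genes 12 rose and 0 fell, with a median of 0.39. The called share, 33.3%, is near the 32.9% of all genes, all of it in the direction in which 15.9% of all genes were called. Ifit3, an antiviral protein, went from 8.06, 6.72 and 5.06 to 11.8, 9.41 and 17.6 CPM (0.97 ± 0.28), and Xaf1 from 1.86, 1.91 and 1.55 to 5.70, 4.49 and 7.42 CPM (1.72 ± 0.18, adjusted p = 2.02e-07). Xaf1 had reached 6.00 CPM by 2 months, whereas Ifit3 was already at 8.75 CPM at 4 weeks. The count of 12 became 5 without 3-week replicate 3, 5 without 12-month replicate 28, and 3 without replicates 27 and 28. Ifit3 was not called without either of those first 2 libraries (adjusted p = 0.0594 and 0.08), nor Ifit1 without replicate 28 (0.0554). With only the 6 compared libraries in the fit, 4 genes of the list rose and 0 fell. Promoters were looked at for the core of the interferon-stimulated response element, GAAANNGAAA on either strand. It stands in 4 of the 10 risen genes in the table and, of the risen antigen presentation genes, in 2 of 12, against 3.46% of all symbols. Of the tested interferon-response genes in the table, called or not, 13 of 25 hold it, so the letters do not separate risen from other members. Ifit1 (chr19:34640769-34640888, plus strand; 2.27 CPM on average at 3 weeks and 4.74 at 12 months) and B2m (chr2:122147538-122147657, plus strand) are shown, with the matches in capitals.
Ifit1: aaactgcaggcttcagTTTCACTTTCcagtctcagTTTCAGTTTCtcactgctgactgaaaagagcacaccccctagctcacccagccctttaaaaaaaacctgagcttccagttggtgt
B2m: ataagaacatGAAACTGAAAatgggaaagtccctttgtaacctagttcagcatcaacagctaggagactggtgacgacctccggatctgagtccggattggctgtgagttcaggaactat

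**Figure D4:**
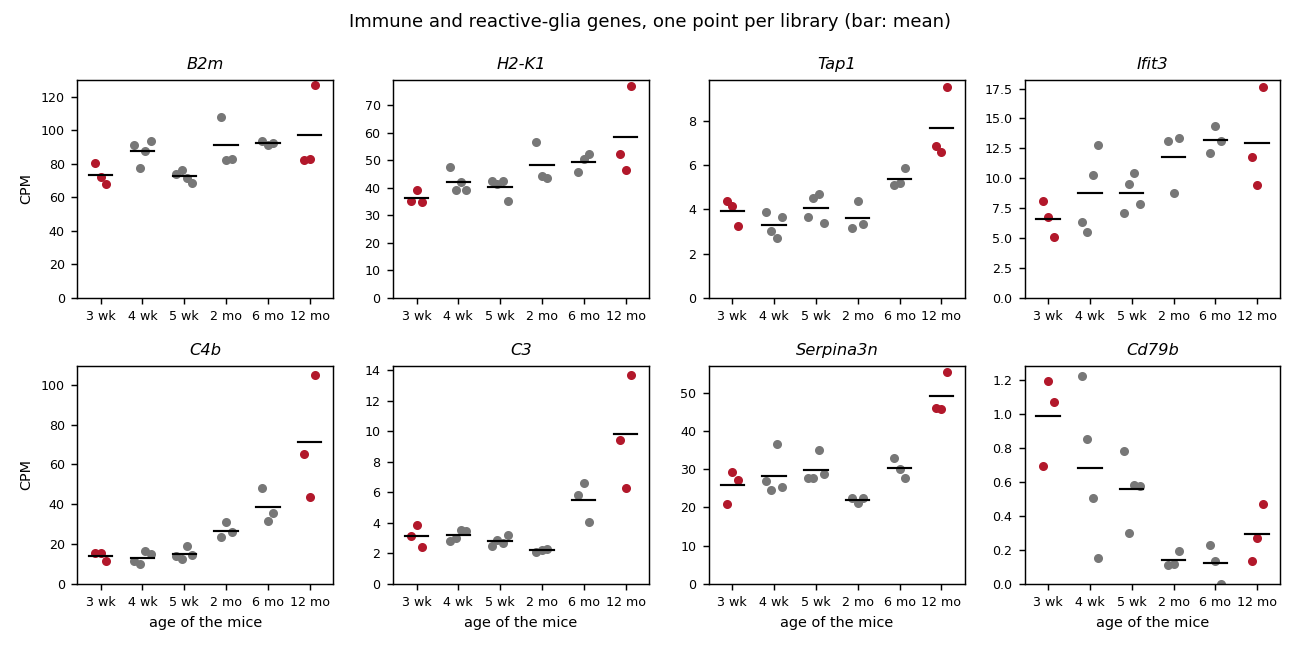
CPM against age for 8 genes, 1 point per library, the 3-week and 12-month libraries in red, with a bar at the mean. C4b, C3 and Tap1 rise mainly after 2 months, Serpina3n is higher at 12 months (49.2 CPM on average) than at 6 months (30.3 CPM), and Cd79b is lower from 2 months on.

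Reactive astrocyte genes rose in part. Some of the risen genes are already counted above: C4b among complement genes, and Psmb8, H2-D1 and H2-T23 among antigen presentation genes. Of 25 reactive astrocyte genes 9 rose and 0 fell, led by C4b and Serpina3n, a protease inhibitor of reactive astrocytes, which went from 20.8, 29.3 and 27.3 to 46.2, 45.8 and 55.5 CPM (0.93 ± 0.13, adjusted p = 1.4e-05). Serpina3n had a log2 fold change of 0.06 ± 0.11 at 6 months against 4 and 5 weeks. Without 3-week replicate 3 the list gave 4 rises, and without 12-month replicate 28, 4 rises and 1 fall. Gfap, the astrocyte filament, was at 297, 329 and 290 CPM at 3 weeks and at 324, 225 and 856 CPM at 12 months and was not called. Of 25 general astrocyte markers 2 rose and 3 fell (1 rose without 3-week replicate 2 or 12-month replicate 28), and the water channel Aqp4 had 0.06 ± 0.18. Of 22 homeostatic microglia markers 4 rose and 1 fell (1 rose without replicate 28, and 2 without 3-week replicate 2 or 3), with P2ry12 and Tmem119 at -0.30 ± 0.16 and -0.16 ± 0.14. Of 27 genes of disease-associated microglia 11 rose and 2 fell (3 and 3 at 6 months against 4 and 5 weeks). They include Cst7, at 0.150, 0.108 and 0.149 CPM at 3 weeks and at 0.272, 0.774 and 0.432 CPM at 12 months, which is close to the level of 3 counts; without replicate 27 it was not called (adjusted p = 0.0578). Without 3-week replicate 3 the list gave 6 rises. Without replicate 28 the list gave 4 rises and without replicates 27 and 28, 0 rises and 3 falls.

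B cell genes fell. Of 9 tested genes of T, B and plasma cells 4 fell, among them the B cell genes Ms4a1, Cd79a and Cd79b, and 0 rose. Cd79b, a part of the B cell receptor, went from 0.692, 1.19 and 1.07 to 0.136, 0.271 and 0.471 CPM (-1.75 ± 0.57, adjusted p = 0.0205). These genes are near the detection level at both ages, and 1 of the 4 was called without 12-month replicates 27 and 28. Without 3-week replicate 2, 12-month replicate 26 or 12-month replicate 27, 2 genes of the list were called. Cd79a was not called on leaving out any 1 library but replicate 28 (adjusted p = 0.0504 to 0.182). Cd79b was not called without 3-week replicate 2 or 3 or 12-month replicate 26 or 27 (adjusted p = 0.0528 to 0.099). Red blood cell genes, given above, moved the same way between 3 weeks and 12 months, and the part of blood in the fall was not tested.

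Ribosomal protein genes rose in part. Of 51 genes 22 rose and 1 fell, with a median of 0.22 (7 and 2, with a median of 0.04, at 6 months against 4 and 5 weeks). Rps2, the 1 that fell, was not called on leaving out any 1 library but replicate 28. Rps29 went from 153, 132 and 153 to 293, 262 and 223 CPM (0.83 ± 0.21). The count was 14 without 3-week replicate 1 or 3, 8 without replicate 28 and 3 without replicates 27 and 28. Of 24 chaperones 11 fell and 2 rose. Hspa5 and Calr, chaperones of the endoplasmic reticulum, had log2 fold changes of -0.33 ± 0.08 and -0.29 ± 0.07, and both were already lower at 5 weeks (adjusted p = 0.00388 and 0.000625). Chaperone rises numbered 0 without 3-week replicate 1 or 12-month replicate 28 and 1 without 3-week replicate 2 or 3, and falls 7 without replicates 27 and 28. Of 14 choroid plexus genes 12 rose, 4 without 3-week replicate 1 or 2, 5 without 3-week replicate 3, 3 without replicate 28, and 0 without replicates 27 and 28. Markers of midbrain and hindbrain gave 0 calls among 20, whereas at 6 months against 4 and 5 weeks 9 rose and 0 fell.

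**Figure D5:**
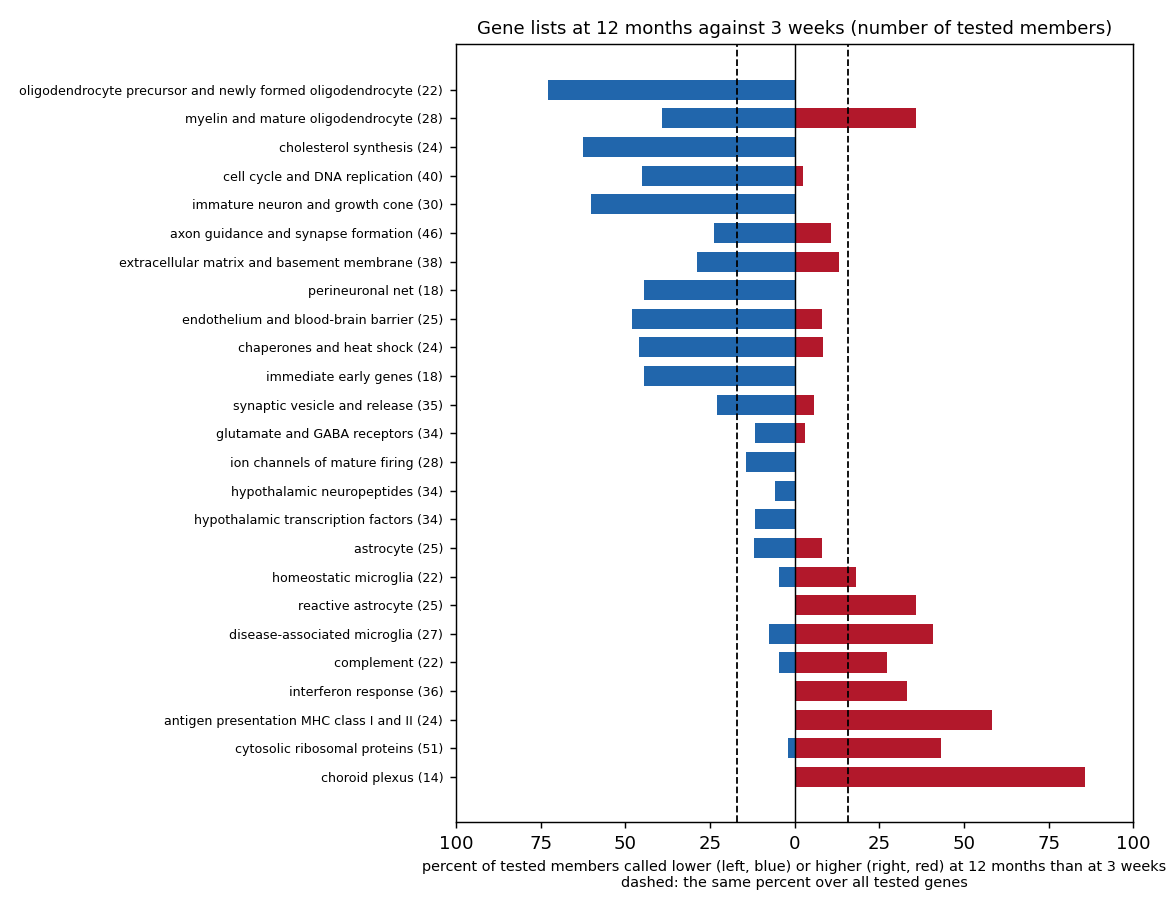
Percent of the tested members of 25 gene lists that were called lower (blue, left) or higher (red, right) at 12 months than at 3 weeks, with the number of tested members in brackets; the dashed lines mark 17.0% and 15.9%, the same percents over all tested genes. These 25 are only part of the lists tested, and no rule for their choice is given. Among them, precursor, cholesterol and immature neuron lists reach furthest to the left (72.7, 62.5 and 60.0%). The choroid plexus and antigen presentation lists reach furthest to the right. Over all lists tested, salivary gland genes (62.5% of 8) and red blood cell genes (60% of 10) were called lower in similarly large shares.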

How the data were processed

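Paired-end RNA libraries of hypothalamus were aligned with HISAT2 2.1.0 to mm10 (GRCm38) and counted with HTSeq 0.9.1, per the submitters' processing notes. The authors deposited 1 table of raw counts for each library, with genes given by symbol. For annotation, strand and trimming, settings were not given in the sources here. Overlapping, antisense and near-identical genes are therefore uncertain. The 5 HTSeq summary lines (27.6 to 32.5% of the total in the 6 libraries compared) were removed. Replicates differed by more than sampling noise in a chi-square check.

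CPM and tests were computed here with edgeR 4.0.16 (R 4.3.3): TMM, filterByExpr by age (16916 of 24499 symbols), robust glmQLFit with 1 mean per age over 28 libraries, two-sided glmQLFTest, Benjamini-Hochberg over all tested genes. The 24-month replicate 5 was left out: it holds 2377580 counts in 1385 genes, and those with a position lie on chromosomes 1 and 10. DESeq2 1.42.0, other scalings, filters and sample sets were alternatives. Against a group at 0, folds use 3 counts over that group as a floor. The interval of a count ratio (95%, exact) covers counting error only. The script was tested on simulated data. Depth was 24661631 to 35029863 gene counts in the 6 libraries.

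The members and the 48 gene lists were chosen with earlier results of these data known. Named genes were called genes with separate groups and at least 5 CPM in the higher age, the top 10 and bottom 10 by fold change (Gm, Rik, pseudogene and LOC symbols passed over), up to 4 called members per list, and a panel given whatever its result; others named in the text were chosen after their values were seen, and some members are not reported here. Promoter sequences are RefSeq's (GRCm38.p6), matched by symbol. Errors after ± are 1 SE of a log2 fold change.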

Additional observations from a re-analysis of the deposited data

Results flagged for a closer look

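In groups of 4 libraries, the gap of the highest or lowest to its neighbour was compared with Dixon's 95% critical value for 4 samples, for 52 genes at 4 and 5 weeks. Of 102 groups 11 (10.8%) passed it, where chance passes about 1 in 20. The 5-week replicate 2 was alone at the top for the choroid plexus genes Ttr (1430 CPM, others 4.20 to 8.33), Kcne2 (10 CPM), Cldn2 (7.10 CPM) and Abca4 (10.4 CPM). It also had the highest 5-week value of Grin2a (10.9 CPM), and at 4 weeks replicate 1 had the highest (9.08 CPM). Adora2a was high in 4-week replicate 4 (10.3 CPM, others 2.62 to 3.34). Serpina3n was high in 5-week replicate 3 (35.2 CPM, others 27.7 to 28.7). Low single libraries were found for Agrp (3.92 CPM in 4-week replicate 2), Gnrh1 (0.457 CPM in 4-week replicate 1) and Cst7 (0.0389 CPM in 5-week replicate 1).

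Outside the gene counts, the share of reads that HTSeq assigned to no feature was 11.7%, 8.35% and 8.22% in 12-month replicates 26, 27 and 28, above the 6.29 to 6.59% of the 3-week libraries. It was 8.01 to 9.87% at 6 months and 6.43 to 7.07% at 5 weeks, so it also differs between the 2 forms of sample title.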

How the results depend on the processing

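The count at 12 months against 3 weeks (5569) stayed within 1.5 times under DESeq2 (5824), other size factors, unscaled library sizes (6063), both filters, the 5 ages alone, the 6 libraries alone (4077), without the 2-month libraries and with the choroid plexus level as a covariate (4082). It was 12 with the partial 24-month replicate 5 in the fit, and 8 at 6 months against 4 and 5 weeks. Asking for at least 2-fold left 1054. Leaving out 1 library gave 4176 to 5078 for the first comparison and 2286 to 3896 for the second (3884). Alternatives chosen after seeing the data left 3364 genes without 12-month replicates 27 and 28 and 2884 without 3-week replicate 1 as well. For 247 genes of the text and panels and 18 alternatives, 3700 of 4423 values kept sign and call, 664 lost the call, 24 gained it and 35 changed sign; 218 of the lost calls belong to the fit with 24-month replicate 5. Genes that changed sign on leaving out libraries had these ranges: Ttr -2.36 to 7.33, Sostdc1 -0.08 to 3.40, Enpp2 -0.54 to 2.28, Cd74 -0.06 to 1.04, Gfap -0.15 to 0.95, Pomc -0.10 to 0.94, Dcx -0.15 to 0.63, Grin2a -0.08 to 0.33, Tcf7l2 -0.28 to 0.29, Aqp4 -0.30 to 0.22, Bcas1 -0.12 to 0.20, Arntl -0.07 to 0.10 and Grin2b -0.57 to 0.06. Without 12-month replicates 27 and 28, values were Ttr -1.94, Enpp2 -0.51, Aqp4 -0.28, Bcas1 -0.11, Sostdc1 -0.08 and Cd74 -0.06. With the choroid plexus covariate they were Ttr -1.91, Enpp2 -0.19, Aqp4 -0.12, Grin2a -0.03 and Acan -0.01. With no filter on low counts, Tcf7l2 was -0.01 and Arntl 0. The causes were not tested. No paired analysis was possible because the 3-week libraries are numbered 1 to 3 and the 12-month libraries 26 to 28, with no number in common.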

Other observations

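The lists given next are read against all tested genes, of which 32.9% were called, 15.9% higher and 17.0% lower. Of 16 tested genes of senescence and cell cycle inhibition 7 fell and 0 rose (43.8% called). The filter on low counts left out the rest of the 22 members. With no filter 7 fell and 2 rose, and the median moved from -0.47 to 0.03. With unscaled library sizes 7 fell and 1 rose. Cdkn1a (p21), which stops the cycle, went from 16.4, 17.2 and 14 CPM at 3 weeks to 7.40, 8.60 and 13.7 CPM at 12 months (-0.68 ± 0.21, edgeR adjusted p = 0.0171), a call lost without 3-week replicate 2 or 12-month replicate 26 or 27 (adjusted p = 0.0577 to 0.103), and Lmnb1, a nuclear lamina protein, fell by 0.44 ± 0.12. Of 17 genes of DNA methylation 5 rose and 4 fell (52.9% called). Without 3-week replicate 2, 1 rose, and without 3-week replicate 3, 3 rose and 2 fell. Without 12-month replicate 26, 3 rose. Dnmt3a, the enzyme that methylates DNA in young neurons, went from 177, 148 and 173 to 118, 95.8 and 85.3 CPM (-0.73 ± 0.14), with an adjusted p of 0.0718 without 12-month replicates 27 and 28, while Tet2, which oxidises methylated bases, rose by 0.75 ± 0.19. In the nuclear respiratory chain 8 of 51 fell and 1 rose, and the 17.6% called lie below the share of all genes. The falls numbered 5 without 3-week replicate 3 and 2 without 12-month replicate 26.

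Thyroid hormone genes were divided. The receptor Thra fell by 0.39 ± 0.10 and Thrb rose by 0.61 ± 0.12, from 18.3, 17.0 and 17.9 CPM to 23.8, 30.4 and 27.1 CPM, and the hormone-responsive corepressor Hr fell by 0.65 ± 0.12. Of 17 genes of this list 6 fell and 3 rose (52.9% called). The calls of Thra and Thrb were lost without 12-month replicates 27 and 28 (adjusted p = 0.132 and 0.0793). Fth1, the ferritin heavy chain that stores iron, rose from 862, 865 and 984 to 1220, 1450 and 1950 CPM (0.77 ± 0.17), highest in the libraries with choroid plexus RNA, and its adjusted p was 0.159 without them.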
